A study of Mus musculus with 47 samples.

Results

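The cytosolic ribosome is built from a small and a large subunit, each made of ribosomal RNA and a fixed set of proteins. The genes for these proteins were described here in the cerebral cortex of mice with and without microglia, over the day. Members were the protein-coding genes of the GENCODE M21 annotation whose symbol has the form used for ribosomal proteins (Rpl or Rps with a number, *Rplp0* to *Rplp2*, or *Rpsa*), without the S6 kinases that share the prefix. This gave 92 of the 53068 genes present in both deposited tables, and 85 of them reached a mean of 1 TPM (read abundance divided by transcript length and scaled to a fixed sum per library) and were tested. Of the 85, 34 belong to the small subunit and 49 to the large subunit, and the other two, *Rps19bp1* and *Rpl7l1*, are relatives that carry the name but are not subunit proteins. All animals were adult male C57BL/6J mice, about 3 months old when killed, and cortex was taken from 1 mouse per library. Control mice (n = 23) ate control chow and PLX5622 mice (n = 24) ate chow with 1200 ppm PLX5622 for 10 days. PLX5622 is an inhibitor of CSF1R, the receptor on which the survival of microglia depends, and it reaches the whole body. Mice were killed at Zeitgeber time (ZT, hours after lights on) 2, 6, 10, 14, 18 or 22, with 4 mice per diet and time except 3 control mice at ZT14.

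Ribosomal proteins are needed in nearly equal numbers, so their mRNAs are abundant and tend to be made and translated together. Most of these mRNAs begin with a C followed by a run of pyrimidines, the 5' terminal oligopyrimidine (TOP) tract, through which mTORC1 signalling and the binding protein LARP1 control their translation. Their genes are short, have many processed copies in the genome, and in brain serve protein synthesis in neuronal cell bodies and processes as well as in glia.

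Control libraries held 16597987 to 24085876 counts and PLX5622 libraries 16795170 to 27626161, and the 37 genes of the mitochondrial genome took 6.46% to 10.0% of them (median 8.57%). Microglial markers were lower in PLX5622 mice for 14 of 14 genes (median log2 difference -3.13), with a summed level of 563.6 to 849.3 TPM in control mice and 23.76 to 129.8 TPM in PLX5622 mice. Neuronal markers were present in every library, at 2773 to 4445 TPM summed in control mice and 2814 to 4258 TPM in PLX5622 mice, as the cortical label requires. Choroid plexus markers ranged from 69.7 to 1278 TPM summed over the libraries. In bulk tissue, fewer cells of a type and less RNA per cell cannot be told apart.

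Many start sites of these genes lie in runs of pyrimidines. RefSeq start sites on GRCm38.p6 were at hand for 66 of the 92 members. The windows run 30 bases across a start site, 5' to 3' on the gene's strand, with the longest run of C and T in capitals. The first 6 were picked from members with a long run, to show small and large subunit genes, genes that were lower with PLX5622 (*Rps9*, *Rpl34*, *Rpl14*) and *Rps27*, whose level the files disagree on. *Rps13* and *Rpl6*, also lower with PLX5622, show windows with a short run.
*Rps6* (chr4:86857353-86857382, minus strand): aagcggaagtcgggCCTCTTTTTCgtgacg
*Rps9* (chr7:3704026-3704055, plus strand): accgccttgTCTCTCTTTgtctcgggcctg
*Rps27* (chr3:90213634-90213663, minus strand): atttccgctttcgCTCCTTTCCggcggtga
*Rpl14* (chr9:120571502-120571531, plus strand): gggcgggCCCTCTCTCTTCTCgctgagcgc
*Rpl34* (chr3:130730323-130730352, minus strand): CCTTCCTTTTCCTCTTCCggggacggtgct
*Rplp2* (chr7:141447636-141447665, plus strand): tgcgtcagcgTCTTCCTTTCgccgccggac
*Rps13* (chr7:116334176-116334205, minus strand): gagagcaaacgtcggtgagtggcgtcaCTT
*Rpl6* (chr5:121204486-121204515, plus strand): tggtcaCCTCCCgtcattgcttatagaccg
In these 30-base windows 27 of the 66 members had a run of at least 8 pyrimidines and 39 had none. Within 50 bases on either side of the start, 53 of the 66 members (80.3%) held a run of at least 8 pyrimidines on the gene's strand, against 39.2% of 26959 other genes. A gene counted once, if any of its start sites had a match. Short words were searched on the gene's strand with overlaps allowed. CTTTCC stood in 31.8% of the members and 5.37% of the other genes, CTTTTC in 13.6% and 4.3%, and CTCTTTC in 18.2% and 1.58%. These are matches of letters and not mapped TOP tracts.

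Processed copies set a limit on what a read can say about one member. Across the 85 members, the median share of coding 31-base words that also occur in another annotated gene was 96.0%, and for 33 members every word was shared. For 83 nuclear genes of the mitochondrial respiratory chain the same median was 3.12%, and for 78 mitochondrial ribosomal protein genes it was 0%. The clearest case was *Rps27*, a small subunit protein with a zinc finger, and its intronless copy *Rps27rt*, whose coding sequences are identical. The related gene *Rps27l* encodes a near-identical protein, but its coding sequence differs from *Rps27* at 61 of 255 bases (76.08% identity). Both sequences are given 5' to 3' from the start codon on GRCm38 annotation (*Rps27* minus strand of chr3:90212522-90213651, *Rps27rt* minus strand of chr9:114982366-114982739, *Rps27l* plus strand of chr9:66946086-66949516), and capitals in *Rps27l* mark the bases that differ from *Rps27*.
*Rps27* and *Rps27rt*: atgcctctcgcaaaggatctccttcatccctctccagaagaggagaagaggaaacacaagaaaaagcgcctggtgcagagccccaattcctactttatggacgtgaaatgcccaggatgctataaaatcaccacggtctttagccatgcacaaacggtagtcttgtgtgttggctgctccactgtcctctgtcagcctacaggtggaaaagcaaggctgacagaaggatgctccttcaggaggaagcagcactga
*Rps27l*: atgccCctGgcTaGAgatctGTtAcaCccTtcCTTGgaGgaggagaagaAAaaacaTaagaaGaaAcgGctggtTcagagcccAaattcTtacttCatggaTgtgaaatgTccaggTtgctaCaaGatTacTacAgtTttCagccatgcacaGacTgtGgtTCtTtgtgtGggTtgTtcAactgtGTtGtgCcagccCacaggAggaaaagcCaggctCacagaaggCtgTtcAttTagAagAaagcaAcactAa
The 2 *Rps27* genes cannot be separated by coding reads, while *Rps27l* can.

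Levels spanned over 100-fold within the set. Mean TPM over the 47 libraries had a median of 824 for small subunit genes, 693 for large subunit genes and 761 for all 85 genes. The highest levels were those of *Rplp1*, a protein of the acidic stalk that recruits elongation factors (4589 TPM), *Rps21* (4230 TPM), *Rps27rt* (4172 TPM), *Rpl13a* (2914 TPM) and *Rps15* (2730 TPM). The lowest were those of *Rpl12* (27 TPM), *Rpl7l1* (29.1 TPM) and *Rpl5*, which binds the 5S ribosomal RNA (32.2 TPM). The 100-fold span thus rests on *Rpl7l1* and *Rps19bp1*, which are not subunit proteins, and on *Rpl12* and *Rpl5*, whose counts were high. Together the members took 8.93% to 12.8% of nuclear TPM, that is TPM without mitochondrial genes, per library. They took 1.77% to 2.77% of the counts, which are not divided by transcript length.

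The count table gave another order for some of these genes. A count level was set as counts divided by the library total and by the length of the coding sequence, and 71 of 85 genes had a ratio of TPM to this level within 3-fold of the median ratio of 1.62. For 7 genes the ratio was at least 10 times the median. These were *Rpl10-ps3* (807 TPM, mean count 3.91 per library), *Rpl13a* (2914 TPM, 568 counts), *Rpl24* (800 TPM, 13 counts), *Rpl36al* (370 TPM, 9.38 counts), *Rps10* (1165 TPM, 43.6 counts), *Rps12-ps3* (110 TPM, 20.4 counts) and *Rps27rt* (4172 TPM, 50.7 counts). For *Rpl12* (27 TPM, 6784 counts), *Rpl5* (32.2 TPM, 5908 counts) and *Rps27* (86.7 TPM, 4772 counts) it was at least 10 times below the median. *Rps27* was thus the abundant gene by counts and *Rps27rt* by TPM, and the same split was seen for *Rpl10* on the X chromosome (110 TPM, 6477 counts) and *Rpl10-ps3* on chromosome 9 (807 TPM, 3.91 counts). The low TPM of *Rpl12* and *Rpl5* stood beside high TPM of copies that carry at least 90% of their coding words, *Gm10275* (1195 TPM) and *Gm15500* (550 TPM). Exons of another annotated gene covered 35.4% of *Rpl13a*, 47% of *Rpl24*, 24.5% of *Rpl36al* and 20.6% of *Rps10*, and 0% of *Rpl10-ps3*, *Rps12-ps3* and *Rps27rt*. Whether overlap or copies set these ratios was not tested. Levels of the 10 genes are therefore uncertain in both tables. Other members also stood beside copies that share at least 90% of their coding words, and their TPM carries the same doubt. These include *Rpl27a* (235.7 TPM, *Gm7536* 1577), *Rps23* (404.7 TPM, *Rps23-ps1* 1018), *Rps16* (430.5 TPM, *Rps16-ps2* 381.7), *Rpl36a* (595.5 TPM, *Rpl36a-ps2* 485.4) and *Rpl28* (320.3 TPM, *Rpl28-ps1* 223.1).

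**Figure D1:**
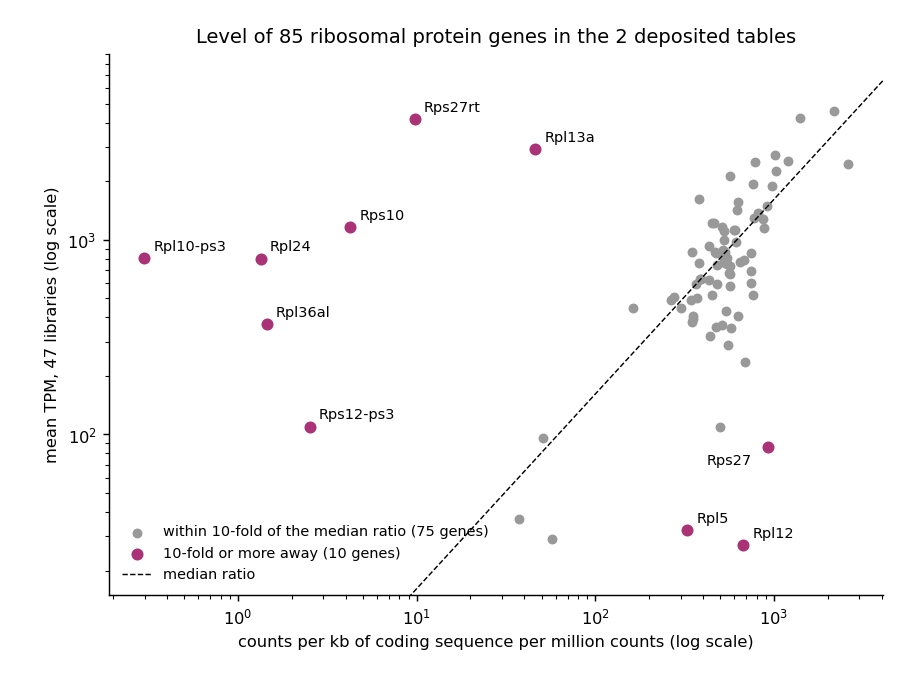
Each point is 1 of 85 ribosomal protein genes, by counts divided by coding length in kb and scaled to a fixed library total (x axis, log scale) and mean TPM over 47 libraries (y axis, log scale). The dashed line is the median ratio of 1.62, and the 10 named genes lie 10-fold or more away from it, with Rps27rt and Rps27 on opposite sides.

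The paralogs with restricted expression elsewhere in the body were almost absent. *Rpl3l*, the striated muscle form of the peptidyl transferase centre protein *Rpl3*, had a mean of 0.305 TPM against 803 TPM for *Rpl3*. *Rpl39l*, a testis form of *Rpl39*, had 0.204 TPM against 354 TPM, and *Rpl10l*, the testis substitute for *Rpl10*, was listed at 0 in every library. *Rpl9-ps6*, *Rpl36a-ps1*, *Rpl9-ps1* and *Rpl36-ps4* were also under 1 TPM, so these 7 genes were not tested on TPM. *Rpl22l1* was in contrast as abundant as its paralog *Rpl22* on the TPM scale (446 and 448 TPM), while by counts it was lower (mean counts 1217 and 2345 per library). *Rps27l*, *Rpl7l1* and *Rpl36al* had 96.5, 29.1 and 370 TPM against 86.7, 406.5 and 595.5 TPM for *Rps27*, *Rpl7* and *Rpl36a*. The doubt named above holds for *Rps27*, *Rpl36al* and *Rpl36a*. Among proteins with a known place in the ribosome, the stalk base *Rplp0* had 379 TPM and the stalk protein *Rplp2* 733 TPM. *Rps6*, the target of S6 kinase, had 868 TPM, *Rps3* at the mRNA entry site 769 TPM and *Rpsa*, the laminin receptor homolog, 601 TPM. *Rps4x* had 493 TPM, and *Rps19bp1*, which binds *Rps19*, 36.9 TPM.

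The first comparison asked whether these genes differ between cortex with and without microglia. With PLX5622, 19 of the 85 genes were lower and 0 were higher (22.4%, limma on log2(TPM + 1), adjusted p below 0.05). Over all 14580 genes tested, 2.58% were lower and 0.871% were higher. The changes were small: the 19 genes lay between -0.21 and -0.11 on the log2 scale, so that their TPM fell by 7.44% to 13.6%. The median log2 difference was -0.080 for the 85 genes and +0.031 for all genes, and 71 of the 85 were below 0. Small subunit genes were lower in 7 of 34 cases and large subunit genes in 12 of 49. At an unadjusted p below 0.05 were 42 of the 85 members and 16.2% of all genes.

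*Rps13*, a small subunit protein near the subunit interface, ranged from 638 to 943 TPM in control mice (median 806) and from 580 to 958 TPM in PLX5622 mice (median 689). Its log2 difference was -0.21 (SE 0.043, limma adjusted p = 7.1e-04). The ranges overlapped although the median fell. *Rps9*, which sits at the mRNA entry of the small subunit, ranged from 674 to 925 TPM in control mice (median 782) and from 562 to 851 TPM in PLX5622 mice (median 693), a log2 difference of -0.18 (SE 0.038, limma adjusted p = 0.0015). *Rpl27* of the large subunit ranged from 563 to 774 TPM (median 671) and from 472 to 805 TPM (median 573), a log2 difference of -0.21 (SE 0.045, limma adjusted p = 0.0019). For both genes the highest and lowest mice of the diets crossed. *Rpl6* of the large subunit had 501 to 607 TPM in control mice (median 541) and 418 to 598 TPM in PLX5622 mice (median 501). Its log2 difference was -0.13 (SE 0.029, limma adjusted p = 0.0037). *Rplp1* of the stalk, the most abundant member, ranged from 4172 to 5873 TPM (median 4792) and from 3472 to 6015 TPM (median 4145), a log2 difference of -0.20 (SE 0.049, limma adjusted p = 0.0075). Its range in PLX5622 mice enclosed that of control mice.

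*Rpl29*, a small basic protein of the large subunit, and *Rpl8*, which lies close to the peptidyl transferase centre, followed the same course. *Rpl29* ranged from 682 to 955 TPM in control mice (median 802) and from 591 to 957 TPM in PLX5622 mice (median 692), a log2 difference of -0.17 (SE 0.041, limma adjusted p = 0.0050). *Rpl8* ranged from 842 to 1085 TPM (median 905) and from 674 to 1103 TPM (median 825), a log2 difference of -0.17 (SE 0.040, limma adjusted p = 0.0074). The smallest adjusted p belonged to *Rpl10-ps3* (log2 difference -0.18, SE 0.032, limma adjusted p = 9.6e-05), with 765 to 984 TPM in control mice (median 847) and 643 to 870 TPM in PLX5622 mice (median 758). Its TPM rests on reads that the count table did not assign to it. When its TPM was summed with that of *Rpl10*, which sits next to the tRNA sites, the pair was lower by a log2 difference of -0.15 (SE 0.034, limma adjusted p = 0.0020). The sum of *Rps27* and *Rps27rt* had a log2 difference of -0.05 (SE 0.056, limma adjusted p = 0.70). The other 11 called genes were *Rps27a*, which is made as a fusion with ubiquitin, *Rps4x*, *Rps10*, *Rps14*, *Rps26*, *Rpl13*, *Rpl14*, *Rpl22*, *Rpl23a*, *Rpl34* and *Rpl36*. In each of the 19 genes the diets overlapped.

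**Figure D2:**
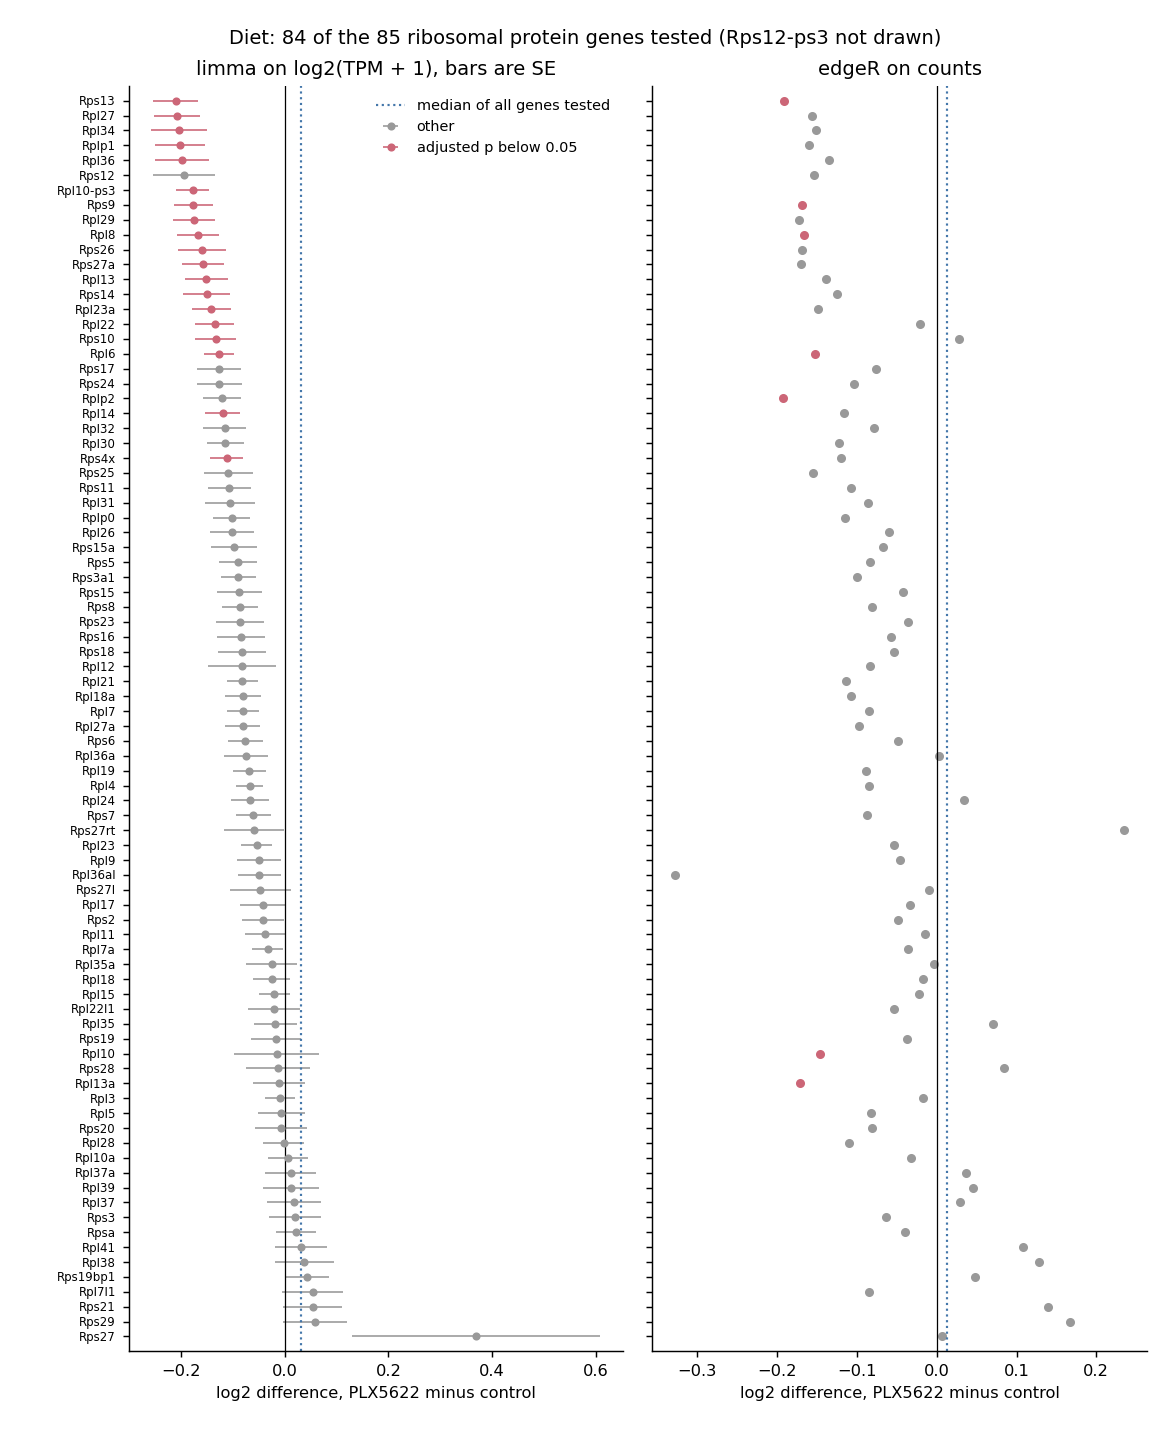
Log2 difference, PLX5622 minus control, of 84 genes by limma on log2(TPM + 1) with SE bars (left) and by edgeR on counts (right), where red marks an adjusted p below 0.05 and the dotted line the median of all genes tested. Most members lie left of 0, and the 19 red genes on the left lie between -0.21 and -0.11; Rps12-ps3 is not drawn because of its wide error, and Rpl10-ps3 has no edgeR value.

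On the counts, fewer members passed. The count filter also kept 85 members, with *Rpl9-ps6* in place of *Rpl10-ps3*. By edgeR's quasi-likelihood test 7 of these 85 were lower and 1 was higher, against 4.99% lower and 2.14% higher among 16960 genes. The 7 were *Rps13*, *Rps9*, *Rpl6*, *Rpl8*, *Rplp2*, *Rpl13a* and *Rpl10*, and the gene called higher was the copy *Rpl9-ps6*. Of the 19 genes called from TPM, 18 were tested on counts, 17 of these had a negative difference and 4 were called. *Rpl27* (edgeR adjusted p = 0.064), *Rpl29* (edgeR adjusted p = 0.054) and *Rplp1* (edgeR adjusted p = 0.10) kept their direction without passing. With the 10 genes of discordant level left out, 17 of 75 members were lower from TPM and 6 from counts. Scaling TPM by median-of-ratios size factors left 11 lower, all among the 19, while 537 of all genes were lower, and it moved the members' median to -0.104 with all genes at 0.0095.

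Seen by time of day, the median difference of the members was of unequal size. The members' median log2 difference was -0.165 at ZT2 (72 of 85 genes below 0) and -0.127 at ZT22 (67 below 0). It was -0.065 at ZT10, -0.074 at ZT18, -0.021 at ZT14 and +0.013 at ZT6, where 34 of 85 genes were below 0. The median of all genes moved too. From ZT2 to ZT22 it was 0.060, -0.028, 0.051, 0.031, 0.037 and -0.007. TPM has a fixed sum per library, and how far the members' pattern over time mirrors this shift was not tested. *Rps13*, *Rps9* and *Rpl10-ps3* were lower in PLX5622 mice at 6 of 6 times, and the other 5 named genes at 5 of 6, with ZT14 as the exception. Within single times, limma called 0 members at any ZT, while it called 95 to 142 of all genes. In the order of ZT, 6, 0, 2, 0, 10 and 17 members had an unadjusted p below 0.05. Of all genes 8.68%, 8.72%, 5.62%, 5.05%, 4.62% and 7.16% had one.

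Gene length and other cell types moved along with this result. The members had a median summed exon length of 1739 bases against 4275 bases for all genes tested. Among other genes, the median diet difference went from 0.001 in the 10% of genes with the shortest exons to 0.056 in the 10% with the longest, and 3.04% of the shortest were lower. The 29 members among the shortest had a median of -0.066. The 14 microglial markers were lower as given above, 3 of 7 choroid plexus markers and 1 of 7 astrocyte markers (*Gfap*) were higher, and 0 of 8 neuronal, 0 of 6 oligodendrocyte, 0 of 5 endothelial and 0 of 5 blood markers were called. The part of length and of these cell types in the members' difference was not tested.

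Genes next to the ribosomal proteins in function gave mixed counts. *Fau* and *Rack1*, a protein and a scaffold of the small subunit whose symbols do not have the Rps form, had log2 differences of -0.11 (limma adjusted p = 0.079) and -0.05 (limma adjusted p = 0.47), and neither was called. Among 19 translation factors and other TOP mRNAs 2 were lower, the poly(A) binding protein *Pabpc1* (log2 difference -0.22, SE 0.038, limma adjusted p = 2.3e-05) and *Tpt1* (-0.16, SE 0.031, limma adjusted p = 3.0e-04). Of 30 ribosome biogenesis genes 0 were called, and of 14 regulators of TOP mRNAs (mTOR and LARP1 among them) 0. The mitochondrial ribosomal proteins had 1 of 78 higher (*Mrpl17*) and 1 lower (*Mrpl52*), and the nuclear respiratory chain 2 of 83 higher (*Cox8b* and *Ndufc1*). By edgeR the called genes of these 5 lists, in this order, numbered 4 of 19, 0 of 30, 1 of 14, 1 of 77 and 2 of 83.

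The second comparison asked whether the members change over the day. A 24 h cosine fitted to all 47 libraries called 0 of 85 members (limma F test), while 5.26% of all genes were called. At an unadjusted p below 0.05 were 8 members and 19.8% of all genes. edgeR called 0 and DESeq2 called 1, *Rpl7l1*, with 4 members each at an unadjusted p below 0.05. Of all genes edgeR called 12.2% and DESeq2 13.1%, with 27.6% and 26.9% at an unadjusted p below 0.05. The member closest to the threshold was *Rpl6*, with an amplitude of 0.072 on the log2 scale and a peak at ZT 8.82 (limma adjusted p = 0.060). Its mean in control mice was 546 ± 21.7 TPM (SD, n = 4) at ZT2, 579 ± 27.4 TPM at ZT10 and 517 ± 11.4 TPM at ZT18. In PLX5622 mice the same times gave 474 ± 44.1, 537 ± 43.2 and 468 ± 20.4 TPM (n = 4 each). Both diets were highest at ZT10 among these times. *Rpl5* (amplitude 0.107, limma adjusted p = 0.084) and *Rpl4* (amplitude 0.056, limma adjusted p = 0.13) came next, and *Rpl5* is a gene whose TPM and counts disagree.

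A nonparametric cycling test (JTK_CYCLE) within each diet also called 0 members. In control mice 1 of 85 members had an unadjusted p below 0.05, as had 8.53% of all genes. After adjustment 0.0754% of all genes were called. In PLX5622 mice 22 of 85 members had one, as had 11.1% of all genes. After adjustment 0.610% of all genes were called. Among members the smallest adjusted p was 0.076, for *Rpl4* by the exact JTK_CYCLE test. A limma F test within each diet called 0 and 0 members, with 2 and 21 at an unadjusted p below 0.05, against 10.7% and 12.8% of all genes. With median-of-ratios scaling, 1 of 85 members had an unadjusted p below 0.05 by JTK_CYCLE in PLX5622 mice, against 14.2% of all genes. The 22 thus depended on the scale. The rhythm difference between diets, tested as an interaction, called 0 of 85 members and 0% of all genes by limma. At an unadjusted p below 0.05 were 7 members and 4.59% of all genes. edgeR and DESeq2 called 0 members, with 3 each at that level, against 5.45% and 3.41% of all genes. The pattern of a larger diet difference at ZT2 and ZT22 than at ZT6 was therefore not called by the cosine term.

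**Figure D3:**
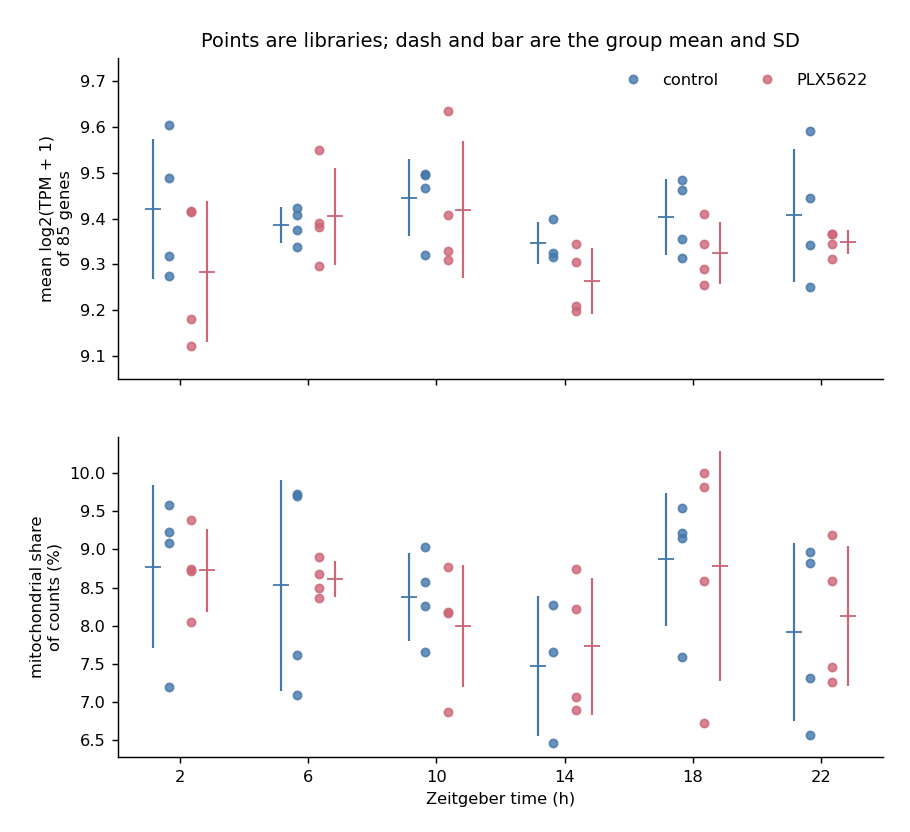
Mean log2(TPM + 1) of the 85 genes (upper) and mitochondrial share of counts in percent (lower) against Zeitgeber time in hours, with 1 point per library and the group mean with SD as dash and bar. The libraries of both diets span 9.12 to 9.63 in the upper plot and overlap at every time.

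Of the lists near the members in function, few genes were called over the day. By limma 3 of 19 translation factors and other TOP mRNAs were called, among them *Eif3e* (amplitude 0.094, limma adjusted p = 0.011) and *Eif3k* (amplitude 0.086, limma adjusted p = 0.019), subunits of the initiation factor that binds the small subunit. Of the biogenesis genes, 1 of 30 was called, the box C/D snoRNP protein *Nop56* (amplitude 0.137, limma adjusted p = 0.013). Neither *Fau* nor *Rack1* was called, and the counts were 0 of 14 for TOP regulators, 1 of 78 for mitochondrial ribosomal proteins and 0 of 83 for the respiratory chain. Of the cell type markers, 2 of 5 endothelial genes were called and 0 genes of the microglial, neuronal, astrocyte, oligodendrocyte, choroid plexus and blood lists.

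The third comparison set the members against the share of counts from the mitochondrial genome, which varied between mice of the same group. Diets did not separate on it, with medians of 8.57% in control and 8.54% in PLX5622 mice. Per percentage point of this share, 46 of 85 members were higher and 0 were lower (limma on nuclear TPM with diet and time in the model), against 2.80% of 14565 nuclear genes higher and 42.1% lower. The median slope was +0.054 on the log2 scale for members and -0.056 for all genes, and 81 of 85 members were above 0. Of small subunit genes 22 of 34 were higher and of large subunit genes 24 of 49. Both here and by diet, 4 genes were called (*Rpl22*, *Rpl29*, *Rps13* and *Rps27a*).

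*Rps20*, a small subunit protein of the head, ranged from 272 to 464 nuclear TPM over the 47 libraries and rose by 0.129 per percentage point (SE 0.023, limma adjusted p = 1.4e-05). *Rpl17* at the exit of the nascent chain tunnel ranged from 1312 to 2046 nuclear TPM with a slope of 0.108 (SE 0.021, limma adjusted p = 4.0e-05). *Rps25*, known for its role in internal ribosome entry, ranged from 1290 to 2036 nuclear TPM with a slope of 0.112 (SE 0.022, limma adjusted p = 5.1e-05). On a linear scale *Rps20* was 1.09-fold and *Rpl17* 1.08-fold higher per percentage point of a share that itself spanned 6.46% to 10.0%. *Rpl39*, which lines the exit tunnel, had a slope of 0.123 (SE 0.026, limma adjusted p = 1.4e-04), and *Rpl41*, the shortest ribosomal protein, 0.110 (SE 0.024, limma adjusted p = 2.4e-04). *Rps23* of the decoding centre, *Rps16* and *Rps27a* had slopes of 0.105, 0.098 and 0.090. Summed with their copies, *Rps23* and *Rps16* had lower slopes of 0.070 (SE 0.023, limma adjusted p = 0.012) and 0.075 (SE 0.018, limma adjusted p = 5.7e-04). With copies summed throughout, 45 of 82 genes or sums were higher and 0 lower. *Rpl27a* and *Rpl15* were no longer called that way, while *Rpl5* and *Rpl28* were. The steepest slope of all, 0.979 for *Rps12-ps3* (SE 0.41), belongs to a copy whose nuclear TPM ran from 0 to 342, and it is not read as a level. *Fau* and *Rack1*, which were no members, were both called higher, with slopes of 0.054 (SE 0.019, limma adjusted p = 0.019) and 0.041 (SE 0.016, limma adjusted p = 0.036).

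**Figure D4:**
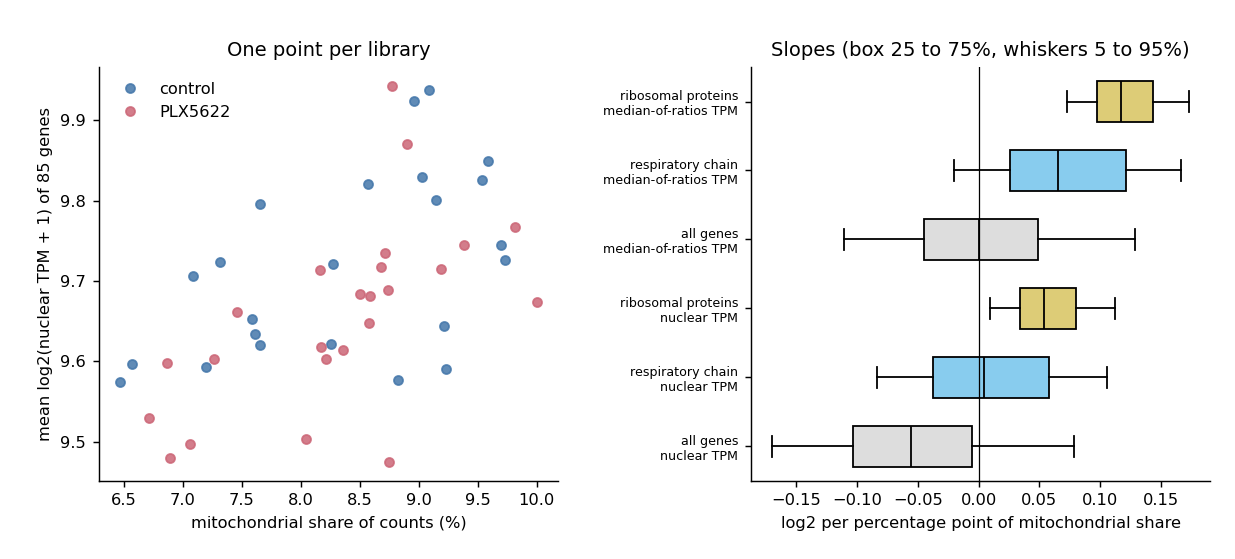
Left, mean log2(nuclear TPM + 1) of the 85 genes against the mitochondrial share of counts in percent, 1 point per library. Right, slopes in log2 per percentage point for the members, the nuclear respiratory chain and all genes on 2 scales (line median, box 25% to 75%, whiskers 5% to 95%); the members' box lies above 0 on both.

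How many members were called depended on the scale and on the model. With the replicate number as a block 19 members were higher and 0 lower, the median slope was 0.034 and 12 of 85 members were below 0, while 204 of all genes were higher and 5513 lower. From TPM as deposited, with mitochondrial genes in the sum, 19 members were higher and 2 lower, *Rps19bp1* and *Rpl36al*, while 192 of all genes were higher and 8036 lower. With median-of-ratios scaling 78 members were higher and 0 lower, while 1891 genes were higher and 2150 lower. edgeR on counts called 77 higher and 0 lower, against 14.6% of genes higher and 16.0% lower, and 44 members were called by both edgeR and limma. The all-gene median moved from -0.056 to 0.000 between nuclear TPM and median-of-ratios scaling and the members' median from 0.054 to 0.117. Within control mice 5 members were called, all higher, while 118 of all genes were higher and 2984 lower. Within PLX5622 mice 28 members were called, all higher, while 196 genes were higher and 4900 lower. The difference in slope between diets was called for 0 of 85 members and 0% of all genes by limma. At an unadjusted p below 0.05 were 0 members and 6.21% of all genes.

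Length moved with this result too. Among other genes the median slope was -0.004 in the 10% shortest by exon length, of which 6.43% were higher, and -0.093 in the 10% longest. The 29 members among the shortest had a median of +0.067, and in the 7 of 10 length classes that held members their median lay above that of the other genes. The part of length, and of RNA quality, for which no direct measure was used here, was not tested.

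**Figure D5:**
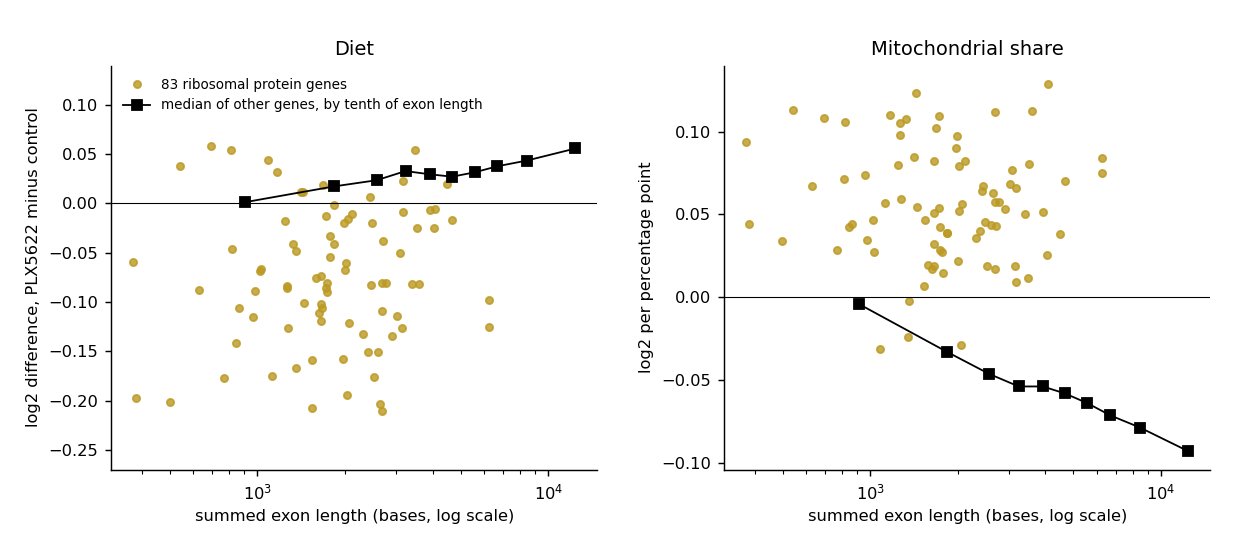
Diet difference in log2 (left) and mitochondrial-share slope in log2 per percentage point (right) against summed exon length in bases (log scale) for 83 members (points, without Rps12-ps3 and Rps27), with squares for the median of the other genes in each of 10 length classes. Members lie mostly below the squares on the left and above them on the right.

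Other lists set the scale for this relation. Of the nuclear respiratory chain, 23 of 83 genes were higher and 21 lower (edgeR 51 and 1), and of the mitochondrial ribosomal proteins 5 of 78 were higher and 20 lower (edgeR 31 and 1 of 77). Biogenesis genes were higher in 0 and lower in 15 of 30 cases, including *Rrs1* and the RNA polymerase I factor *Rrn3* (slopes -0.119 and -0.127), TOP regulators in 0 and 6 of 14, including *Mtor* and *Rptor* (-0.170 and -0.136), and other TOP mRNAs in 1 and 6 of 19. By edgeR these were 5 and 7, 2 and 2, and 10 and 2, so the direction of the last list turned with the scale. Among cell type markers 7 of 8 neuronal, 4 of 5 endothelial, 3 of 6 oligodendrocyte and 1 of 7 astrocyte genes were lower, 1 oligodendrocyte and 1 astrocyte gene were higher, and 0 microglial, choroid plexus or blood markers were called. With the counts, 3 neuronal and 1 oligodendrocyte gene were lower and 2 oligodendrocyte and 1 astrocyte gene were higher.

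Mice that were high in one member were high in most others. After diet and time were removed, the median Pearson r over all pairs of the 85 genes was 0.657 across the 47 libraries on log2(TPM + 1). It was 0.341 for the respiratory chain, 0.252 for mitochondrial ribosomal proteins and 0.145 for all nuclear genes. On counts scaled by library total the 4 medians were 0.856, 0.576, 0.390 and 0.038. These values describe the libraries, and the pairs share library, depth, transcript length and, through the copies, reads. The first residual component of all genes had r = -0.856 with the mitochondrial share. With 3 such components in the model 43 of 85 members were lower with PLX5622, the 19 among them, and over all 14580 genes 839 were lower and 1719 higher. These components come from what the diet and time terms leave over. They therefore left each diet difference unchanged and only changed its error, for *Rps13* from an SE of 0.043 to 0.030. The rise in calls is thus not a second test of the diet result.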

How the data were processed

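RNA from cortex was sequenced as 1 library per mouse. The TPM table was deposited by the authors, who aligned reads to GRCm38.p6 with STAR and estimated TPM with Salmon and a GENCODE annotation. The deposited count table is labelled FPKM, but it holds whole-number counts per gene, not normalized, and was used as counts. The submitters' processing notes list featureCounts. The settings of featureCounts, strand use included, are not given in the sources used here. Rows without a gene name were left out (174 rows of the count table, 37 counts in all).

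The main fits used limma 3.58.1 in R 4.3.3 on log2(TPM + 1), kept 14580 genes whose mean TPM reached 1, and had diet and a 24 h cosine and sine as terms, with Benjamini-Hochberg adjustment over all genes at 0.05. Rhythm was an F test on both terms, its difference an interaction with diet, and JTK_CYCLE was written out exactly for 6 phases. The slope on mitochondrial share used log2(nuclear TPM + 1) and 14565 genes. A fold change on this scale understates the change of low genes. edgeR 4.0.16 (quasi-likelihood) and DESeq2 1.42.0 on the counts were alternatives. Each mouse is a separate animal. Mice were housed in groups and the cage of each is not given, so an effect of cage was not tested. Named genes were up to 8 called members in each direction by smallest adjusted p per comparison (the 3 with the smallest p where none passed), the 5 highest and 3 lowest levels, members of known role, and 2 genes per list and fit with calls; the 11 further diet calls, the 10 discordant genes and the genes named from alternative fits were named after their values were seen. The members, the 13 gene lists and the tests were chosen with earlier results of these data known. On simulated data with 200 changed genes, limma and edgeR recovered 100% at a log2 effect of 0.5 for diet and rhythm and 0.3 for the share, and JTK_CYCLE 92.5% and 92.0% at 0.5 in control and PLX5622 mice. Of the genes called there, 3.38% to 6.1% were not among those changed for that test. The simulated effects were larger than those of most members, and genes were drawn independently. The recovery therefore does not speak to effects of the members' size. One gene of these lists is not reported here. Replicate numbers were not used to pair the mice in the main fits. Start sites come from RefSeq on GRCm38.p6 and coding sequences from the GENCODE annotation on GRCm38.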

Additional observations from a re-analysis of the deposited data

Results flagged for a closer look

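Of 121 values by group of 4 mice that were looked at, 1 held a library far from the others. The mean log2(TPM + 1) of the 85 members at ZT10 in control mice was 9.32 in the lowest mouse, 9.467 in the next and 9.497 in the highest. Chance gives such a gap in about 1 of 20 groups. The 121 values did not cover every gene given by group, so the flagged group is not the only uneven one. *Rpl4* was not flagged, but its control groups at ZT6 and ZT2 were more uneven still, by the gap as a share of the range. At ZT6 the lowest mouse had 574.1 TPM and the others 622.6 to 625.4 TPM. At ZT2 the highest mouse had 648 TPM and the others 589.1 to 597.6 TPM.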

How the results depend on the processing

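For diet, the 19 called members became 43 with 3 residual components in the model (43 with components computed without the members), 11 with median-of-ratios and 10 with upper-quartile scaling, 8 by edgeR, 5 by edgeR with no filter, 10 by DESeq2 and 0 within any single ZT. The 3 residual components cannot move the diet differences and only change their error. Members and all genes called were 50.6% and 17.5% with components, 12.9% and 5.05% with median-of-ratios and 11.8% and 4.76% with upper-quartile scaling. They were 9.41% and 7.13% by edgeR, 5.62% and 3.44% by edgeR with no filter and 11.2% and 5.82% by DESeq2. The 8 by edgeR, 5 by edgeR with no filter and 10 by DESeq2 each include 1 member that was higher, *Rpl9-ps6*. For rhythm, the count of 0 became 1 by DESeq2 (*Rpl7l1*), with ZT as a factor (*Rpl36al*), and with a trended prior, the mitochondrial share as a covariate or no filter (*Rpl6* in each). For the mitochondrial share, the 46 became 77 by edgeR, 77 by edgeR with no filter, 77 by DESeq2, 78 with median-of-ratios and 80 with upper-quartile scaling, 21 on TPM as deposited, 28 within PLX5622 mice and 5 within control mice. The all-gene median slope moved with the scale as given beside that result. Other alternatives, apart from the replicate block, kept each count within 1.5 times.

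Replicate numbers are shared between groups, but samples with the same number at the same time correlated at -0.093 to 0.198 (median 0.072, 7 of 23 pairs above 0.1) and samples with another number at -0.213 to 0.158 (median -0.018, 6 of 69 above 0.1). Same-numbered samples of any other group had a median of 0.055 (76 of 253 above 0.1). As not every pair passed 0.1, the number was not used as a pairing in the main fits. The median mitochondrial share was 8.75%, 8.73%, 8.1% and 8.17% for replicate numbers 1, 2, 3 and 4. Whether samples of the same number share a batch or order was not tested. With the replicate block, 22 members were called by diet, 1 by rhythm (*Rpl6*), 0 by rhythm difference and 19 by mitochondrial share. Of all genes 3.96%, 7.15%, 0% and 39.3% were called, in this order.

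Among the named genes, the sign of *Rpl10-ps3* turned by DESeq2 (log2 difference 0.50, adjusted p = 0.43) and by edgeR with no filter (0.50, adjusted p = 0.38), where it has 3.91 counts per library. Within ZT14, limma gave *Rpl27* 0.055, *Rpl6* 0.053, *Rpl29* 0.024, *Rpl8* 0.040 and *Rplp1* 0.051 (adjusted p = 1 for each), so these turned too. The cause was not tested.

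Leaving out 1 library at a time gave 13 to 25 members called by diet, 40 to 53 by mitochondrial share, 0 to 1 by rhythm, 0 to 0 by rhythm difference, 0 to 0 by cycling in control mice and 0 to 1 by cycling in PLX5622 mice. The rhythm count was 1 without control ZT22 replicate 2 or 3 or PLX5622 ZT2 replicate 4 (*Rpl6* in each) and without PLX5622 ZT18 replicate 2 (*Rpl5*), and the cycling count was 1 without PLX5622 ZT10 replicate 4 (*Rpl4*). The named genes called by diet or mitochondrial share stayed called without any 1 library. Depth limits the members with few counts, *Rpl10-ps3*, *Rpl36al*, *Rpl24*, *Rps12-ps3*, *Rps10* and *Rps27rt*, for which the count tests say little.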
